A study of Mus musculus with 8 samples.

Results

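The unfolded protein response and endoplasmic reticulum (ER) folding genes examined here were 39 genes of 54838 counted in each library. They were taken by symbol from a list, which was drawn up with earlier results of these data known. All 39 were found in the count files, and all 39 passed the expression filter that left 19358 genes for testing. The samples were submandibular glands, a major salivary gland, of male mice, and RNA was sequenced from 4 wild-type (WT, strain C57BL/6J) and 4 Dp16 libraries. Dp16, whose strain label is B6.129S7-Dp(16Lipi-Zbtb21)1Yey/J, is a Down syndrome model with an extra copy of the chromosome 16 segment from Lipi to Zbtb21 in every cell (GRCm38 chr16:75540514-97962622), and none of the 39 genes lies in it. The labels name no treatment, and the sources used here give no age and do not say whether each library came from a separate animal. The p-values therefore measure only the spread between these samples, which may be partly technical. The series concerns calcium handling and low saliva output in Down syndrome, per its title.

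Proteins that a gland cell secretes are folded inside the ER, which also stores calcium. Chaperones such as Hspa5 (BiP) bind unfolded chains, and protein disulfide isomerases join their cysteines. Chains that do not fold are returned to the cytosol and destroyed by ER-associated degradation (ERAD). When unfolded protein builds up, 3 sensors in the ER membrane respond. Ern1 (Ire1) splices the Xbp1 transcript, Atf6 is cut free to enter the nucleus, and Eif2ak3 (Perk) slows translation and raises the protein level of Atf4. Xbp1 and Atf6 drive chaperone, isomerase and ERAD genes, and Atf4 drives Ddit3 (Chop), Trib3, Chac1 and genes of amino acid supply. Cells with a heavy secretory load, such as salivary acinar cells and plasma cells, express the first set at high levels even without an imposed stress.

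None of the 39 genes passed the test for a difference between genotypes, edgeR's quasi-likelihood test with Benjamini-Hochberg adjustment over all genes and a threshold of 0.05. Of all genes tested 0.625% passed it, 0.47% higher and 0.155% lower in Dp16, so a count of 0 among 39 genes is near the background. At an unadjusted p under 0.05 there were 9 of the 39 (23.1%), against 24.6% of all genes: 7 were lower in Dp16 and 2 were higher. DESeq2 called 5, 3 lower and 2 higher, where it called 10.3% of all genes and 4.37% lower. Limma-voom called 1, which was lower, where it called 2.05% of all genes and 0.77% lower. The log2 fold change of Dp16 over WT was negative for 33 of the 39 and its median was -0.38, beside 48.9% negative and a median of 0.01 over all genes. With 1 surrogate variable in the fit, 19 of the 39 were negative and the median was 0.000964. The 4 WT and 4 Dp16 libraries did not overlap for 4 members, all lower in Dp16, which is 10.3% of the members against 14.1% of all genes in either direction and 6.96% lower.

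**Figure D1:**
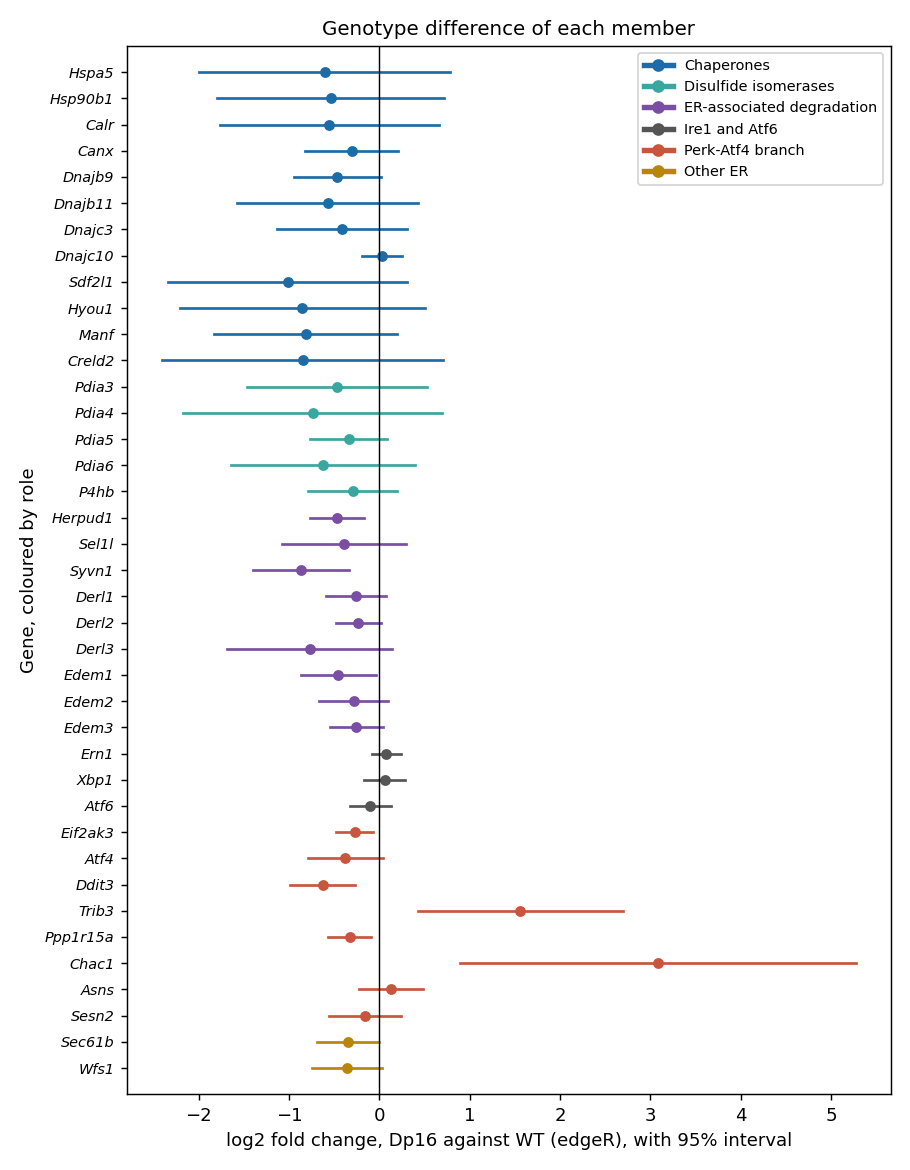
Log2 fold change of Dp16 over WT (horizontal axis) for each of the 39 genes, grouped by role, with points for the edgeR estimate and bars for its 95% confidence interval. Most points lie below 0 and none passed the test, most chaperones and isomerases have wide intervals, and the widest of all is that of Chac1.

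Reads counted in genes were 90790542 to 115729892 per library, and the lowest count of any member was 47 reads, for Chac1 in Dp16 replicate 4. Reads overlapping no counted feature took 13.8% to 15.9% of a WT library and 18.4% to 20.8% of a Dp16 library, with no overlap between the groups. The part of this share in the results below was not tested. Acinar transcripts were abundant in every library: the 20 listed acinar genes summed to 284100 to 394300 CPM in WT and 254900 to 347100 in Dp16. Most of that sum was Mucl2, at 234400 to 334000 CPM in WT and 210300 to 285200 in Dp16. Not every acinar marker was high, and Muc19 was at 4.32, 0.312, 104 and 0.338 CPM in WT and 0.265, 0.416, 2.15 and 13.2 in Dp16. CPM stands for counts scaled to a common library size by TMM, and values are listed for replicates 1, 2, 3 and 4 in turn. These numbers are those of the sample titles, and the library name of WT replicate 4 carries the number 5 instead. In whole tissue, fewer cells of a type and less RNA per cell cannot be told apart.

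The ER chaperones spread widely inside each genotype. Hspa5, the main Hsp70 of the ER (GRCm38 chr2:34771970-34777547), had 724, 2242, 790.4 and 2203 CPM in WT and 381, 1907, 319.5 and 1304 CPM in Dp16. Replicates 2 and 4 were the high pair in both genotypes, and the groups overlapped. Its log2 fold change was -0.61 (SE 0.617, 95% confidence interval -2.00 to 0.78, edgeR adjusted p = 0.562), an interval that holds both a large decrease and an increase.

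**Figure D2:**
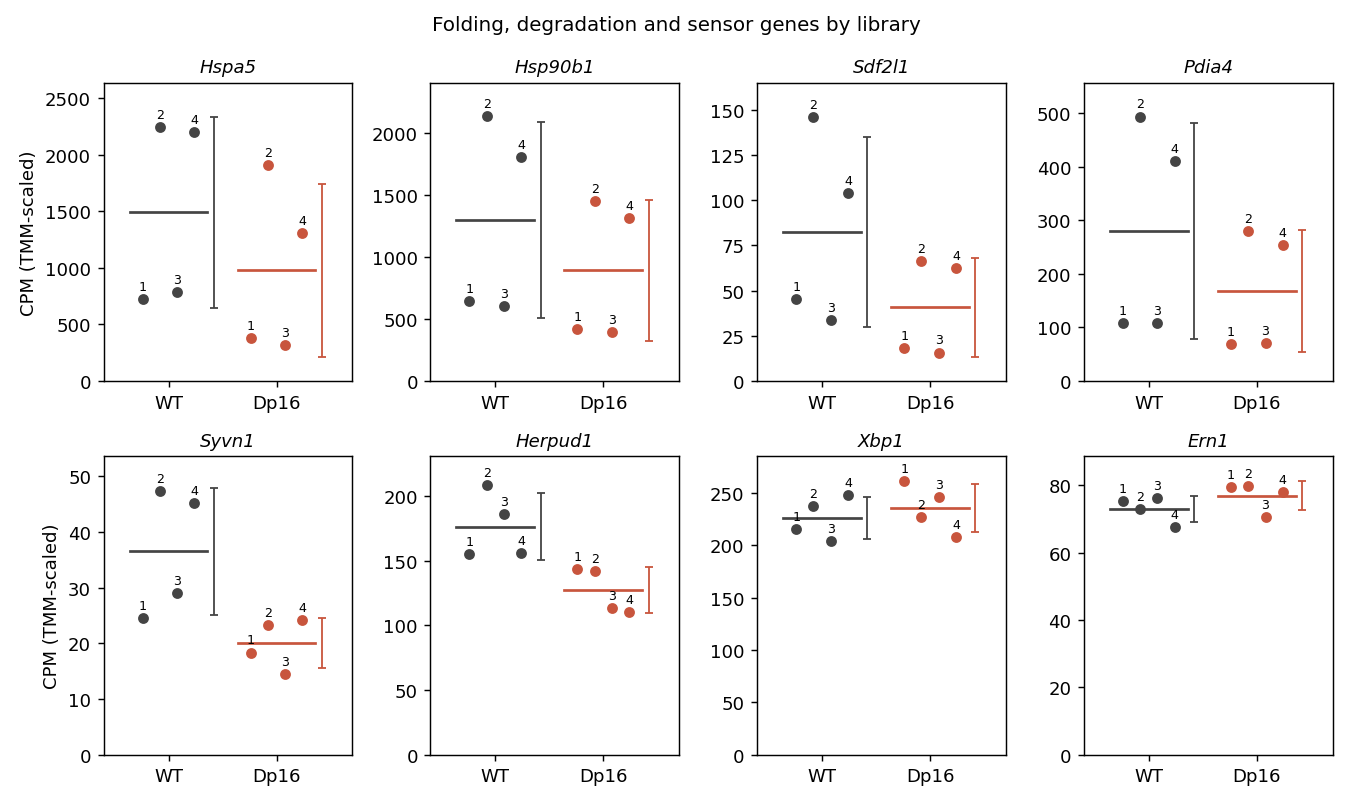
CPM in each library (points, vertical axis) for selected members in 4 WT and 4 Dp16 libraries, with the mean and SD of each group. Hspa5 ranges from 724 to 2242 CPM in WT and from 320 to 1907 in Dp16, and Xbp1 stays between 204 and 261 CPM in all 8 libraries.

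Among the other chaperones the smallest p-values were those of Dnajb9, Manf and Sdf2l1. Dnajb9, an Hsp40 that partners Hspa5, had 49.7, 80.0, 59.9 and 69.5 CPM in WT and 35.0, 57.6, 34.9 and 60.1 in Dp16, a log2 fold change of -0.46 (SE 0.216, edgeR adjusted p = 0.22). Manf, a secreted ER-resident factor, stood at 123, 273, 124 and 259.8 CPM in WT against 64.2, 174, 47.2 and 158 in Dp16, a log2 fold change of -0.82 (SE 0.450, edgeR adjusted p = 0.289). Sdf2l1, a cofactor of Hspa5, had the most negative fold change of all 39 members. It was at 45.2, 146, 33.8 and 104 CPM in WT and 18.4, 66.1, 15.7 and 62.6 in Dp16, a log2 fold change of -1.01 (SE 0.588, edgeR adjusted p = 0.308). All 3 genes had replicates 2 and 4 as the high pair in both genotypes, and in each the groups overlapped. Hyou1 (-0.86) and Creld2 (-0.85) had log2 fold changes nearly as negative, Hsp90b1 (-0.54), the ER form of Hsp90, and Calr (-0.55), the lectin chaperone and calcium buffer, were close to Hspa5, and Dnajc10 (0.03), a reductase, was near 0. The median over the 12 chaperones was -0.56, with 11 of 12 negative and none at an unadjusted p under 0.05, and it was 0.094 with 1 surrogate variable in the fit.

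All 12 chaperones had replicates 2 and 4 as their 2 highest libraries in WT and again in Dp16. Across all members this held for 26 of 39 (66.7%), against 11.9% of all genes tested, and no member had those libraries as the 2 lowest in both groups. This ordering was noticed after the values were seen, and it compares libraries of 1 genotype with each other, not the genotypes. It held for 5 of 5 isomerases, 6 of 9 ERAD genes and 2 of 2 of the remaining ER genes, but for only Atf6 among the 3 genes of the Ire1 and Atf6 arms and for 0 of the 8 genes of the Perk and Atf4 arm. The ratio of the highest to the lowest library had a median of 2.78 in WT and 3.69 in Dp16 over the chaperones, 2.67 and 2.78 over the isomerases, and 1.46 and 1.64 over the ERAD genes, beside 1.40 and 1.44 over all genes. The labels name no batch that replicates 2 and 4 share, and since 1 of these 4 libraries has another number in its library name, the number alone does not tie them. Among marker lists, the order held for 6 of 17 heat shock, 2 of 6 endothelial, 1 of 7 fibroblast and 1 of 7 myoepithelial genes. It held for 0 of the 19 acinar, 14 granular duct, 12 plasma cell, 7 B cell, 12 T and NK cell, 9 macrophage and dendritic cell, 5 adipocyte, 3 skeletal muscle and 19 immediate early genes. The reverse order, replicates 2 and 4 the 2 lowest of both genotypes, held for 10.4% of all genes. It held for 7 of the 19 immediate early, 3 of 7 B cell, 2 of 6 endothelial, 2 of 19 acinar and 1 of 12 plasma cell genes. The share of reads in no feature was 15.7%, 13.8%, 14.6% and 15.9% in WT and 19.2%, 18.4%, 20.7% and 20.8% in Dp16. The part of these values in the library order was not tested.

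**Figure D3:**
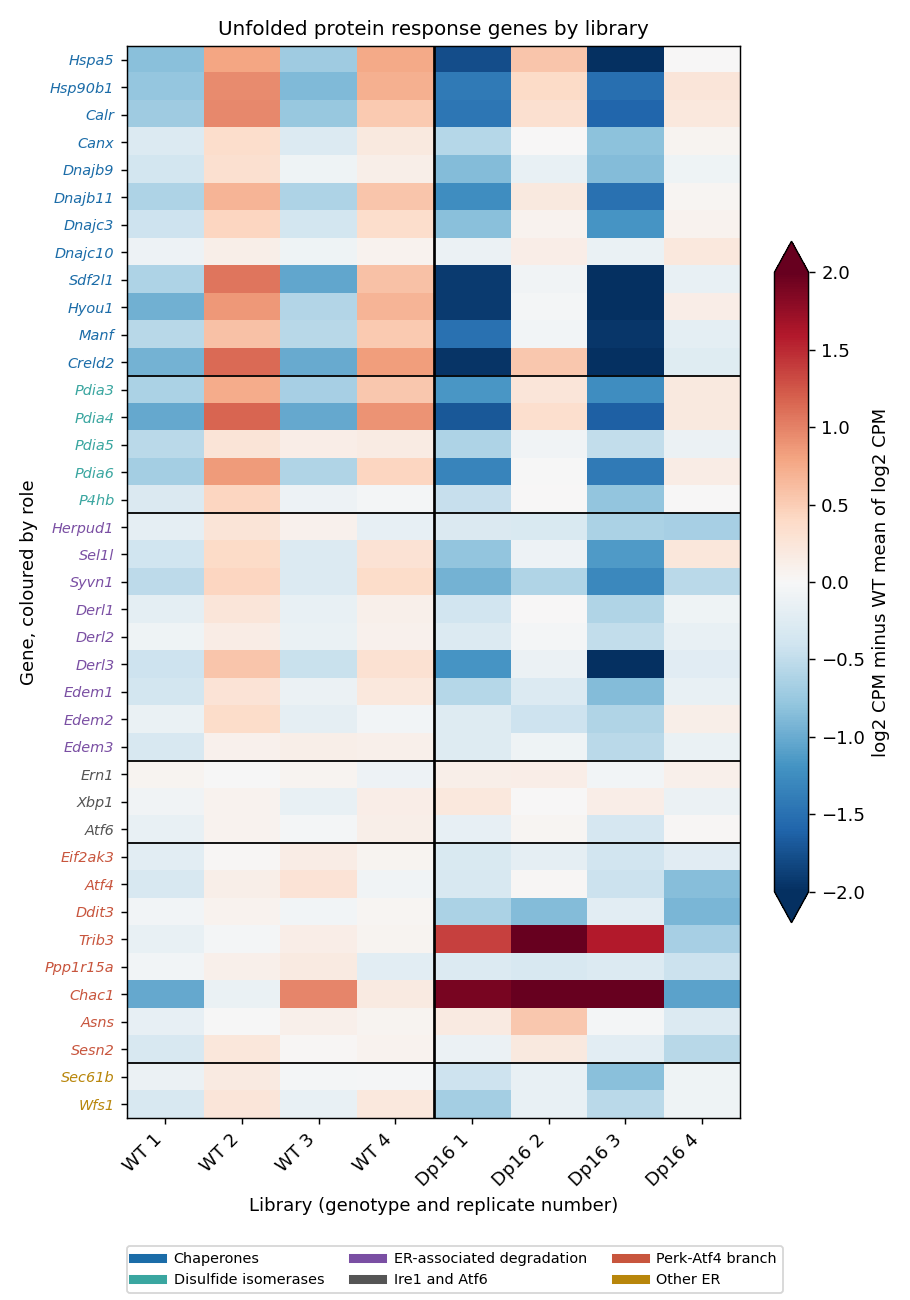
Log2 CPM of each of the 39 members (rows, grouped by role) in the 8 libraries (columns), relative to the member's WT mean, on a colour scale in log2 units. Replicates 2 and 4 stand above replicates 1 and 3 in both genotypes for the chaperones and isomerases, and not for the Perk and Atf4 genes.

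The promoters of the members were then searched for the elements through which the response is known to act. RefSeq promoter windows on GRCm38.p6, 250 bases before to 50 bases after the start, were at hand for 35 of the 39 members. The ER stress response element (ERSE), the letters CCAAT and CCACG with any 9 bases between them, searched on both strands, occurred in 9 of the 35 (25.7%). It was in 39 of 32851 promoter windows (0.119%) and, counted by gene as the members are, in 0.137% of 27025 genes. The letters CCACG alone were in 27 of the 35 (77.1%) and in 35.5% of genes. The ERSE matches are shown, as the full element found in the most members. All 9 genes had replicates 2 and 4 as the high pair in both groups, and so did 13 of the 26 members without it. This split follows the roles: 7 of the 9 were chaperones or isomerases, and all 8 chaperones and isomerases with a window but no ERSE had the same order. Each line is printed on the strand that carries the element, with its fixed letters in capitals and 5 flanking bases on each side.
Hspa5: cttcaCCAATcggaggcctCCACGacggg
Hsp90b1: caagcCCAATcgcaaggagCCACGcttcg
Hsp90b1: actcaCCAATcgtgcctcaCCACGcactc
Calr: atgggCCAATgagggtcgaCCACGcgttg
Canx: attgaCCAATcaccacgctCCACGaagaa
Dnajc3: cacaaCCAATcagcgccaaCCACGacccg
Creld2: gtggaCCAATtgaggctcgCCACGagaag
Pdia6: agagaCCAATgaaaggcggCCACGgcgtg
Syvn1: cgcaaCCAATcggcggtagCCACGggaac
Derl3: gctagCCAATggggaagtcCCACGgtaga

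In Hspa5 the element lay 65 to 47 bases before the RefSeq start, at GRCm38 chr2:34772020-34772048 with its flanks. That stretch is inside the gene span given above, which begins at 34771970, and overlaps an annotated exon. Hsp90b1 carried 2 copies on opposite strands, and the stretch that holds both (GRCm38 chr10:86705528-86705661, minus strand) is shown with each copy in capitals.
Hsp90b1: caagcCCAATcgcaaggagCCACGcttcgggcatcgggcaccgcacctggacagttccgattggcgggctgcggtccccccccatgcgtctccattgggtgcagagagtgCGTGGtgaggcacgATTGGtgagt

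The high-to-low library ratio had a median of 2.90 in WT and 3.71 in Dp16 over the 9 genes with an ERSE, and 1.46 and 1.66 over the 26 without. Within the chaperones and isomerases it was 3.10 and 3.71 over the 7 with an ERSE and 2.10 and 2.26 over the 8 without, a description with no test. A match is a description of letters and not of a bound site. Genes outside the list carried it too: 28 had an ERSE, of which 15 were tested, and 5 of those 15 (33.3%) had the same library order, with a median log2 fold change of -0.01. The related element ERSE-II, ATTGG and CCACG with any 1 base between them, shares its last 5 letters with ERSE. It was found in Dnajb11 and Herpud1, in 0.0365% of windows and in 0.0444% of genes. In Dnajb11 it lay 7 to 17 bases after the start, overlapping an annotated exon, and in Herpud1 52 to 42 bases before the start. Neither element was found in Sdf2l1 or Pdia4, whose ratios were among the highest. The UPR element TGACGTGG was in none of the 35 members with a window, in 0.676% of all windows and in 0.714% of genes.

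**Figure D4:**
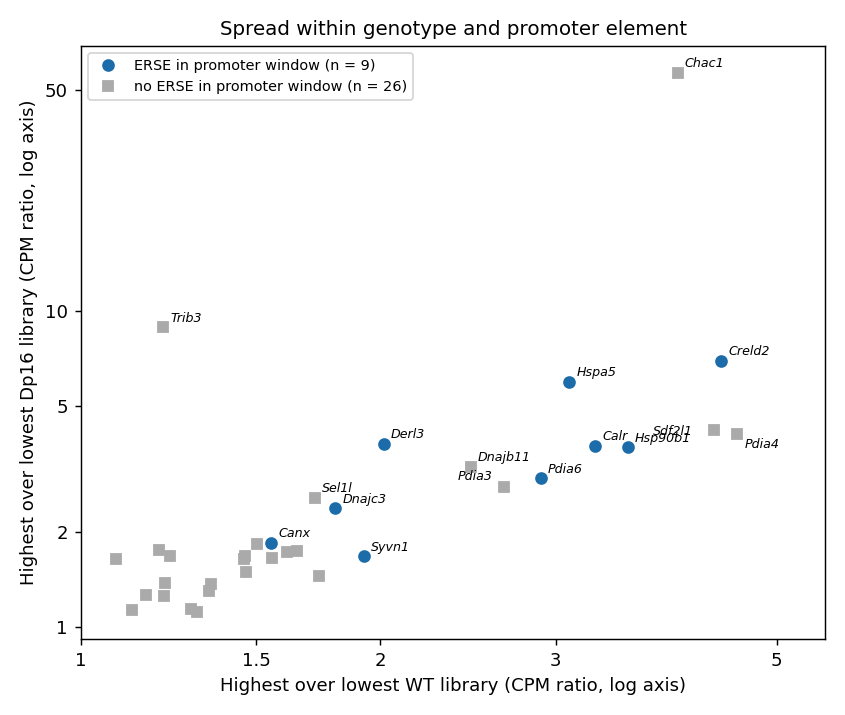
Ratio of highest to lowest library in WT (horizontal log axis) against the same ratio in Dp16 (vertical log axis) for the 35 members with a promoter window, with circles for the 9 genes with an ERSE and squares for the 26 without. Circles spread towards high ratios in both genotypes, and Chac1 and Trib3 have a high ratio in Dp16 that their WT libraries do not match.

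The protein disulfide isomerases had the library order of the chaperones. Pdia5 had the smallest p, at 7.43, 12.9, 11.9 and 12.1 CPM in WT and 7.10, 10.3, 7.71 and 9.98 in Dp16, a log2 fold change of -0.34 (SE 0.189, edgeR adjusted p = 0.294). Pdia6, which also attenuates Ire1 signalling, had 165, 479, 176 and 359 CPM in WT and 107, 263, 99.7 and 295 in Dp16, a log2 fold change of -0.63 (SE 0.452, edgeR adjusted p = 0.41). P4hb (PDI), the classical isomerase, stood at 959, 1582, 1096 and 1148 CPM in WT and 851, 1181, 678 and 1183 in Dp16, a log2 fold change of -0.30 (SE 0.218, edgeR adjusted p = 0.415). In all 3 the groups overlapped and replicates 2 and 4 were high. Pdia3 (-0.47) and Pdia4 (-0.74) had negative log2 fold changes as well, so all 5 were negative, with a median of -0.47 (0.086 with 1 surrogate variable) and none at an unadjusted p under 0.05. Per kilobase of exon, P4hb was the most abundant of the 39 members in WT, at 418 CPM per kb, ahead of Hspa5 at 352, Hsp90b1 at 322 and Calr at 309.

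The ERAD genes held 2 of the 4 members whose groups did not overlap, 2 of 9 genes beside 14.1% of all genes (6.96% lower). Syvn1 (Hrd1), the ubiquitin ligase at the centre of the retrotranslocation channel (GRCm38 chr19:6046576-6053712), had 24.6, 47.3, 29.1 and 45.2 CPM in WT and 18.4, 23.2, 14.4 and 24.2 in Dp16. Every Dp16 library was below every WT library, although the highest Dp16 value, 24.2 CPM, lay just under the lowest WT value, 24.6 CPM. The log2 fold change was -0.87 (SE 0.238, 95% confidence interval -1.40 to -0.33, edgeR adjusted p = 0.0911). DESeq2 gave an adjusted p of 0.00915 and limma-voom 0.0653. Herpud1, a scaffold of the same complex (GRCm38 chr8:94386438-94395377), had 155, 209, 187 and 156 CPM in WT and 144, 142, 113 and 110.2 in Dp16, again with no overlap. Its log2 fold change was -0.47 (SE 0.133, edgeR adjusted p = 0.0956, DESeq2 adjusted p = 0.0223, limma-voom adjusted p = 0.0807). Herpud1 did not share the library order of the chaperones: WT replicate 2 was its highest library, and Dp16 replicate 4 its lowest.

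The Herpud1 promoter window held an ERSE-II and, further upstream, the amino acid response letters TTGCATCA (CARE), to which Atf4 dimers are known to bind. It is shown, with both in capitals, because it is the one member promoter with a match from each arm (GRCm38 chr8:94386312-94386392, plus strand).
Herpud1: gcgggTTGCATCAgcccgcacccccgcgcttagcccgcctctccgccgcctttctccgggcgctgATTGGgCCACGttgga

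Edem1, a lectin that hands misfolded glycoproteins to degradation, had 156, 243, 184 and 232 CPM in WT and 136, 167, 110.4 and 182 in Dp16, a log2 fold change of -0.46 (SE 0.185, edgeR adjusted p = 0.177). Its groups overlapped, since Dp16 replicates 2 and 4 lay above WT replicate 1. Derl3, which lines the ERAD channel and is prominent in secretory cells, was at -0.77 on the log2 scale. Sel1l (-0.39), the partner of Syvn1, Derl1 (-0.26), Derl2 (-0.23), Edem2 (-0.28) and Edem3 (-0.26) were smaller in size. All 9 ERAD genes had a negative log2 fold change, with a median of -0.39. With 1 surrogate variable in the fit, Sel1l turned positive. At an unadjusted p under 0.05 there were 3 of 9 (33.3%), all lower in Dp16, beside 11.9% of all genes lower and 24.6% in either direction.

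The sensor and factor genes of the Ire1 and Atf6 arms were nearly level between the genotypes and between libraries. Xbp1 (GRCm38 chr11:5520659-5525893) had 216, 237, 204 and 248 CPM in WT and 261, 226, 246 and 208 in Dp16, a log2 fold change of 0.06 (SE 0.101, 95% confidence interval -0.17 to 0.29, edgeR adjusted p = 0.746). The groups overlapped, with Dp16 replicate 1 the highest and WT replicate 3 the lowest library. A gene count does not separate spliced from unspliced Xbp1, so Ire1 activity was not measured. Ern1, the sensor itself, had 75.4, 72.9, 76.2 and 67.7 CPM in WT and 79.6, 79.8, 70.5 and 78.0 in Dp16, a log2 fold change of 0.07 (SE 0.0717, edgeR adjusted p = 0.536). Atf6 had 102, 118, 110.3 and 122 CPM in WT and 101, 116, 89.8 and 114 in Dp16, a log2 fold change of -0.10 (SE 0.101, edgeR adjusted p = 0.549). The confidence intervals of these 3 genes, -0.17 to 0.29, -0.09 to 0.24 and -0.33 to 0.13, were narrow beside that of Hspa5.

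Within the Perk and Atf4 arm the members went in both directions. Ddit3 (Chop), a transcription factor linked to prolonged ER stress (GRCm38 chr10:127290774-127296288), had the smallest p of all 39 members. It stood at 5.76, 6.24, 5.74 and 6.08 CPM in WT and 3.85, 3.27, 5.16 and 3.15 in Dp16. The WT libraries lay close together, every Dp16 library was below them, and Dp16 replicate 3 came closest. Its log2 fold change was -0.63 (SE 0.160, 95% confidence interval -0.99 to -0.27, edgeR adjusted p = 0.0815). DESeq2 gave an adjusted p of 0.00707 and limma-voom 0.0417, and without Dp16 replicate 3 edgeR gave 0.0471. Those were the only 3 of 16 alternative fits that called Ddit3, and the highest adjusted p among the 16 was 0.196. A second annotated Ddit3 entry that overlaps this one had 0 reads in the 8 libraries, and reads shared by both would not have been counted for either.

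Chac1, an enzyme that degrades glutathione, and Trib3, a pseudokinase that restrains Atf4 signalling, are standard Atf4 and Chop targets and had the 2 largest positive fold changes of the 39. Chac1 (GRCm38 chr2:119351229-119354381) had 0.503, 0.927, 2.00 and 1.15 CPM in WT and 3.81, 27.5, 7.11 and 0.486 in Dp16. Dp16 replicates 1, 2 and 3 were above every WT library and replicate 4 was below them all. The log2 fold change was 3.08 (SE 0.975, 95% confidence interval 0.89 to 5.28, edgeR adjusted p = 0.115, DESeq2 adjusted p = 0.0345, limma-voom adjusted p = 0.286). Dp16 replicate 2 was by far the highest, and without that library the log2 fold change was 1.73 (edgeR adjusted p = 0.185). Its promoter window held the CARE letters 193 to 186 bases before the start (GRCm38 chr2:119351044-119351061), shown in capitals as the Atf4-type match in the member with the widest Dp16 spread. CARE was in 2 of the 35 members with a window, in 0.895% of all windows and in 1.03% of genes.
Chac1: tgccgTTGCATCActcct

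Trib3 had 0.967, 1.04, 1.17 and 1.11 CPM in WT and 2.77, 5.97, 3.21 and 0.672 in Dp16, the same pattern with a smaller excess over WT in replicates 1 to 3. Its log2 fold change was 1.56 (SE 0.504, edgeR adjusted p = 0.12, DESeq2 adjusted p = 0.0148, limma-voom adjusted p = 0.195). Without Dp16 replicate 4 the edgeR adjusted p was 0.0502 for Trib3 and 0.0696 for Chac1. Atf4 itself did not share their pattern. It had 65.3, 88.3, 98.3 and 77.4 CPM in WT and 65.2, 83.0, 60.4 and 45.3 in Dp16, a log2 fold change of -0.38 (SE 0.184, edgeR adjusted p = 0.239), with overlapping groups and replicate 4 lowest in Dp16. Atf4 is regulated mainly at translation, which RNA counts do not measure.

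**Figure D5:**
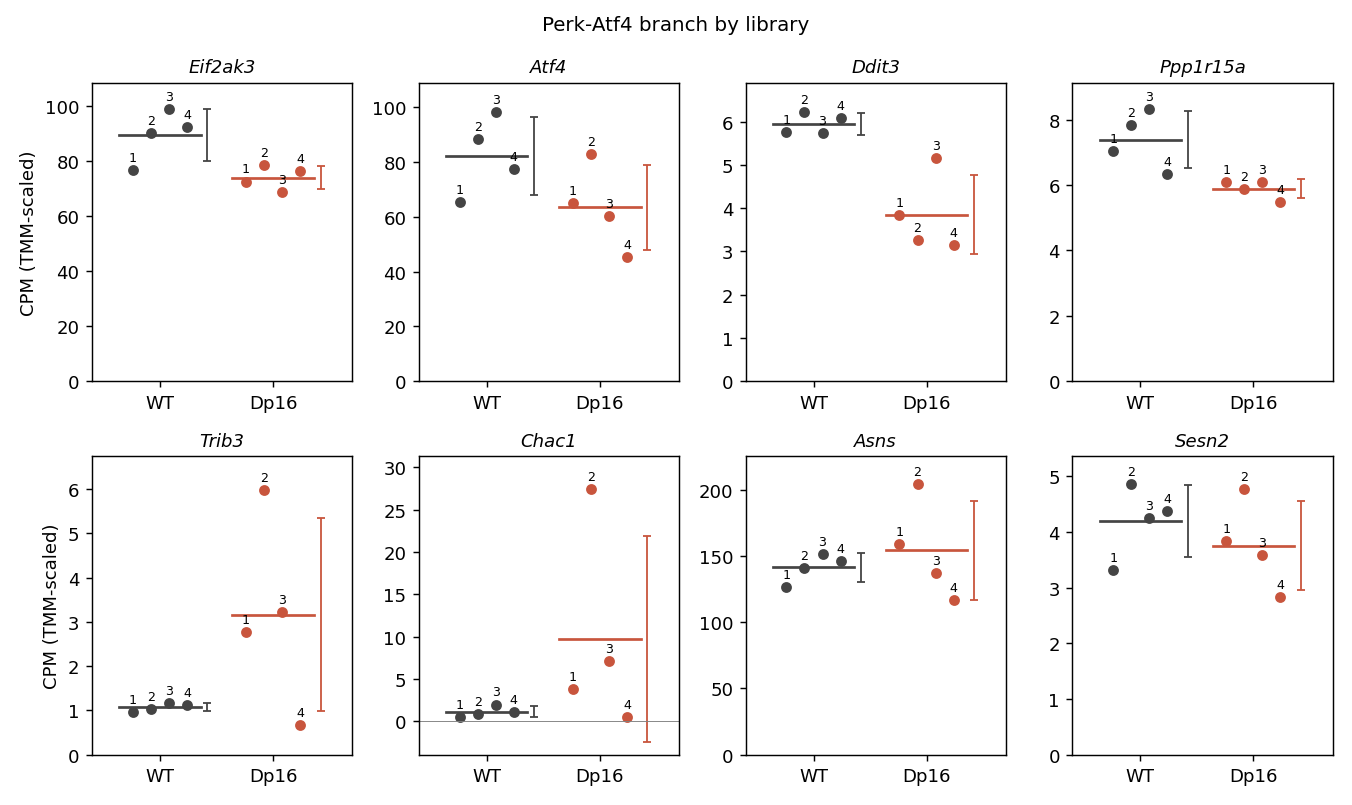
CPM in each library (points) for the 8 Perk and Atf4 members in 4 WT and 4 Dp16 libraries, 1 panel per gene with its own vertical axis, with the mean and SD of each group. Ddit3 and Ppp1r15a are lower in all 4 Dp16 libraries, and Chac1 and Trib3 are high in Dp16 replicates 1 to 3 and below every WT library in replicate 4.

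Eif2ak3, the sensor, had 76.6, 90.2, 98.8 and 92.1 CPM in WT and 72.5, 78.4, 68.6 and 76.2 in Dp16, a log2 fold change of -0.27 (SE 0.0902, edgeR adjusted p = 0.123). Its groups overlapped through 1 Dp16 library that lay above WT replicate 1. Ppp1r15a (Gadd34), the phosphatase subunit that ends the translational block, was at 7.06, 7.85, 8.32 and 6.35 CPM in WT and 6.09, 5.87, 6.11 and 5.48 in Dp16, with no overlap. Its log2 fold change was -0.33 (SE 0.107, edgeR adjusted p = 0.121). Asns, asparagine synthetase, had 126, 141, 152 and 146 CPM in WT and 159, 204, 137 and 117 in Dp16 (0.13 on the log2 scale, edgeR adjusted p = 0.643), and Sesn2, a stress-induced regulator of growth signalling, was at -0.16 (edgeR adjusted p = 0.594). The arm thus had 5 of 8 genes with an unadjusted p under 0.05, 3 lower and 2 higher, beside 24.6% of all genes (11.9% lower and 12.7% higher). The median log2 fold change was -0.22. For 7 of the 8, Dp16 replicate 4 was the lowest Dp16 library, against 25.5% of all genes, an ordering also noticed after the values were seen.

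Both remaining members had negative fold changes. Sec61b, a subunit of the channel through which new chains enter the ER, had 78.8, 96.9, 83.2 and 84.5 CPM in WT and 64.2, 77.1, 47.9 and 80.4 in Dp16, a log2 fold change of -0.35 (SE 0.153, edgeR adjusted p = 0.199). Wfs1, a membrane protein of ER calcium handling, had 9.32, 13.7, 10.5 and 13.5 CPM in WT and 7.26, 10.4, 7.96 and 10.9 in Dp16, a log2 fold change of -0.36 (SE 0.172, edgeR adjusted p = 0.227). In both, replicates 2 and 4 were the high pair of each genotype and the groups overlapped.

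The wider pathway was followed in 7 lists of 203 other genes, of which 198 were tested. None of the 198 was called by edgeR. A signed value in parentheses after a gene here is its log2 fold change of Dp16 over WT. At an unadjusted p under 0.05 there were 45 (22.7%), close to the 24.6% of all genes. Of the 45, 8 were higher and 37 lower, where 12.7% of all genes were higher and 11.9% lower. The log2 fold change was negative for 145 of 198, against 48.9% of all genes, with a median of -0.15. Replicates 2 and 4 were the high pair of both genotypes for 70 of 198 (35.4%), against 11.9% of all genes. These were 22 of 42 other ER folding, 12 of 34 other ERAD and 19 of 36 translocon and oligosaccharyltransferase genes. The rest were 8 of 15 genes upstream of Atf4, 4 of 39 further Atf4 targets, 2 of 20 Ire1 and Atf6 partners and 3 of 12 ER-phagy genes.

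The sign was most uniform in the lists that handle protein directly at the ER. Among other ERAD genes 32 of 34 were negative, with 7 lower and 0 higher at an unadjusted p under 0.05. The smallest p-values there were those of Ube2g2 (17.9, 22.7, 19.1 and 22.0 CPM in WT and 14.0, 15.9, 13.8 and 14.7 in Dp16, log2 fold change -0.48, edgeR adjusted p = 0.0589), a ubiquitin-conjugating enzyme of ERAD, and Aup1 (-0.39, edgeR adjusted p = 0.0667), which recruits it. The groups did not overlap for Ube2g2. Of the translocon and oligosaccharyltransferase genes 34 of 36 were negative, with 11 lower and 1 higher at that p. Krtcap2 (-0.47, edgeR adjusted p = 0.0909), an oligosaccharyltransferase subunit, and Asna1 (-0.40, edgeR adjusted p = 0.0955), which inserts tail-anchored proteins, led that list. The 1 higher was Wrb (0.34, edgeR adjusted p = 0.105), the ER receptor of Asna1, named after its values were seen, which lies in the duplicated segment. Of the other ER folding genes 34 of 42 were negative, led by Fkbp9 (-0.31, edgeR adjusted p = 0.133), a prolyl isomerase, and Mlec (-0.47, edgeR adjusted p = 0.147), a glycan-binding lectin.

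Partners of Ire1 and Atf6 were mixed in sign, with 11 of 20 negative. Creb3l1 (27.8, 30.3, 30.3 and 38.7 CPM in WT and 26.3, 19.9, 23.5 and 20.6 in Dp16, log2 fold change -0.49, edgeR adjusted p = 0.0815), an ER-bound transcription factor of secretory cells, and Mapk8 (-0.25, edgeR adjusted p = 0.0846), the Jnk kinase downstream of Ire1, had the smallest p-values, and neither had overlapping groups. Genes upstream of Atf4 were negative in 12 of 15. Eif2s3x (-0.34, edgeR adjusted p = 0.0856), a subunit of the initiation factor that Perk phosphorylates, had a negative fold change, and Eif2ak2 (23.5, 25.0, 20.6 and 30.7 CPM in WT and 33.6, 33.4, 42.4 and 30.7 in Dp16, log2 fold change 0.49, edgeR adjusted p = 0.0954), the interferon-inducible kinase Pkr, a positive one. ER-phagy genes were close to level, with 8 of 12 negative and Ccpg1 (0.39, edgeR adjusted p = 0.137) and Rtn3 (-0.15, edgeR adjusted p = 0.184) at the smallest p.

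Further Atf4 targets were the one wider list with more positive than negative members, 25 against 14 of 39, and a median log2 fold change of 0.09. Psat1, an enzyme of serine synthesis, had 3.69, 4.47, 9.24 and 5.16 CPM in WT and 17.7, 27.2, 25.9 and 3.78 in Dp16, a log2 fold change of 1.73 (SE 0.533, edgeR adjusted p = 0.111). Shmt2, which passes serine carbon to mitochondrial folate, had 6.34, 7.72, 8.26 and 6.96 CPM in WT and 10.2, 13.6, 12.3 and 6.82 in Dp16, a log2 fold change of 0.55 (SE 0.197, edgeR adjusted p = 0.143). In both, Dp16 replicates 1 to 3 lay above every WT library and replicate 4 lay among them, whereas in Chac1 and Trib3 replicate 4 lay below every WT library. Of these 39 further Atf4 targets, 26 were highest of all 8 libraries in Dp16 replicate 2 (66.7%, against 10.5% of all genes). Among the 8 Perk and Atf4 members 3 were. Dp16 replicate 4 was the lowest Dp16 library for 26 of the 39 further targets (66.7%, against 25.5%). Dp16 replicates 1 to 3 were all above WT in 7 of these 39 (17.9%), against 10.6% of all genes. These orders too were noticed after the values were seen.

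Markers of other cells and states were read in the same fit, with log2 fold changes again in parentheses. The counts at an unadjusted p under 0.05 stand beside 12.7% of all genes higher and 11.9% lower at that p. Of the 12 plasma cell genes, which mark a cell type with a large ER of its own, 9 were higher in Dp16 at an unadjusted p under 0.05, and they summed to 1002 to 1748 CPM in WT and 1764 to 2446 in Dp16. Tnfrsf13b (0.86, edgeR adjusted p = 0.0677) and Iglc2 (0.85, edgeR adjusted p = 0.071) had the smallest p there. Acinar genes were negative in 15 of 19, led by Tesc (-0.61, edgeR adjusted p = 0.058) and Aqp5 (-0.66, edgeR adjusted p = 0.0589), the water channel of saliva secretion. Among the negative ones, Dcpp1, Dcpp2, Dcpp3 and Muc19 were high in WT replicate 3 alone, at 22.3, 70.8, 39.1 and 104 CPM. In the other WT libraries they had at most 4.32 CPM. Bhlha15 (Mist1), the transcription factor of secretory acinar and plasma cells, had 217, 226, 275 and 168 CPM in WT and 157, 109.7, 113 and 117 in Dp16 (-0.83, edgeR adjusted p = 0.0589). It is named after its values were seen. Granular duct genes summed to 113500 to 192700 CPM in WT and 67120 to 138400 in Dp16, all 14 were negative, and Klk1 was called lower (-0.70, edgeR adjusted p = 0.0358). Immediate early genes, which respond within minutes to handling or stimulation, were negative in 19 of 19 and summed to 189.4 to 303.8 CPM in WT and 123.4 to 193.6 in Dp16. Csrnp1 was called lower among them (-0.97, edgeR adjusted p = 0.0396). Heat shock genes were negative in 16 of 17, led by Dnaja1 (-0.50, edgeR adjusted p = 0.0685) and Dnajb1 (-0.41, edgeR adjusted p = 0.0709). B cell genes (7 of 7 tested) and T and NK cell genes (11 of 12) were higher at an unadjusted p under 0.05. Cd79b (1.47, edgeR adjusted p = 0.0589) led the first, and Klrd1 (1.39, edgeR adjusted p = 0.0331) was called higher in the second. At that p, 0 of 9 macrophage and dendritic cell genes differed, 3 of 6 endothelial genes were higher, and lower were 2 of 7 fibroblast, 2 of 7 myoepithelial, 3 of 5 adipocyte and 1 of 3 skeletal muscle genes. The part of these lists in the results on the 39 members was not tested.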

How the data were processed

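The deposited values are raw read counts per gene, 1 table per library, for 8 libraries; per the labels, they were made from total RNA with a stranded kit and ribosomal RNA depletion. FastQC, STAR, HTSeq, DESeq2 and GRCm38 are named, without versions, in the submitters' processing notes; no annotation release or strand setting is given in the sources used here. Without strand, overlapping or antisense partners cannot be separated: 16 of the 39 members overlap another gene model, 9 on the same strand, among them Manf, Ddit3 and Hsp90b1. The 5 rows that name no gene held 58.1% to 65.4% of reads and were left out.

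Counts were fitted in R 4.3.3 with edgeR 4.0.16 (default expression filter, TMM, quasi-likelihood F-test, two-sided, no covariate), with Benjamini-Hochberg adjustment over 19358 genes and a threshold of 0.05. Samples were grouped by the labelled genotype. CPM values use TMM-scaled library sizes. The same fits were tested on simulated counts. There edgeR recovered 26.9% of 1.5-fold, 67.2% of 2-fold and 100% of 4-fold changes, with 6 false calls among 135. A change of 1.5-fold would thus often go uncalled. The changed genes were drawn at random from expressed genes, so these rates are not those of the members. Larger estimated changes also went uncalled in members whose libraries spread widely, such as Chac1 (log2 fold change 3.08, SE 0.975, edgeR adjusted p = 0.115). Alternatives were DESeq2 1.42.0, limma-voom (limma 3.58.1), other scalings, filters and thresholds, a replicate block, 1 surrogate variable (sva 3.50.0) and each library left out in turn. Scaling by total counts or RLE for the library order was chosen after seeing the data.

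The members and lists were chosen with earlier results of these data known. Values per library are given for the 3 smallest p in each role of 5 or more members, all members of smaller roles, and Hspa5, Xbp1, Atf4 and Ddit3; wider lists give called genes or else the 2 smallest p, and marker lists the summed range and the 2 smallest p. Other genes were named after their values were seen.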

Additional observations from a re-analysis of the deposited data

Results flagged for a closer look

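Each member was checked in each genotype for 1 library far from the other 3, 78 groups in all, of which chance alone would mark about 1 in 20. There were 2, both in WT replicate 1. Pdia5 had 7.43 CPM there, with the other WT libraries at 11.9 to 12.9 CPM. Edem3, a mannosidase-like ERAD gene, had 124.2 CPM there, with the others at 164.8 to 168 CPM. Neither gene lies in the duplicated segment, and neither passed the test between genotypes.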

How the results depend on the processing

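Of 624 fold changes of members recomputed under alternatives, 582 kept their sign and stayed uncalled, 21 became called and 21 turned sign. With 1 surrogate variable the members' median log2 fold change was 0.000964, with 19 of 39 negative, and the signs turned for Hspa5 (0.25), Hsp90b1 (0.34), Calr (0.26), Canx (0.038), Dnajb11 (0.12), Dnajc3 (0.067), Hyou1 (0.023), Creld2 (0.19), Pdia3 (0.23), Pdia4 (0.32), Pdia6 (0.086), P4hb (0.000964), Sel1l (0.052) and Atf6 (0.031). The other fits kept the median between -0.26 and -0.50. Dnajc10, near 0, was at -0.0093 with limma-voom and ranged from -0.043 to 0.082 with 1 library left out, negative in 4 of the 8 fits (-0.0077, -0.043, -0.011 and -0.0097). Xbp1 turned to -0.00043 without WT replicate 3 and Asns to -0.040 without Dp16 replicate 2. The cause of each was not tested. Members called lower numbered 0, but 3 with DESeq2, 1 with limma-voom, 3 at an adjusted p under 0.10 (2.9% of all genes) and 0 to 1 with 1 library left out (0 to 0.467% of all genes; 1 without Dp16 replicate 3, where 0.0611% were). The replicate block is given below. Members called higher numbered 0, but 2 with DESeq2 (5.89% of all genes). Of the 198 wider genes 0 were called lower, but 11 with DESeq2 (4.37% of all genes) and 1 with limma-voom (0.77%). At an adjusted p under 0.10 there were 8 (2.9% of all genes), and with 1 library left out 0 to 1 (0 to 0.467%). Wider genes called higher were 0, but 1 with DESeq2 (5.89% of all genes) and 1 at an adjusted p under 0.10 (3.85%). Libraries 2 and 4 were the high pair of both genotypes for 27 members by total counts and 26 by RLE.

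The replicate numbers were not shown to pair the samples: deviations of same-numbered libraries correlated at 0.191, 0.129, 0.0777 and 0.105, and not every library correlated best with its own number. The number of WT replicate 4 comes from its title and differs in its library name. A fit with the replicate number as a block called 14 of the 39 members and 7 of the 198 wider genes lower, where it called 2.15% of all genes lower. Depth bears most on Chac1 and Trib3, the members with the fewest reads.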
